A study of Mus musculus with 50 samples.

Results

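Astrocyte marker genes are genes whose RNA is used to find or count astrocytes. The 10 described here, Gfap, Aqp4, Aldh1l1, Slc1a2, Slc1a3, Gja1, Gjb6, S100b, Sox9 and Aldoc, were chosen by name as widely used markers of these cells. All 10 were found by symbol among the 55487 genes counted, and all 10 were among the 16330 protein-coding genes with enough reads to test. RNA sequencing of messenger RNA was done on frontal cortex of mice that were wild type or Setd1a+/-; the latter carry 1 copy of a disrupted Setd1a allele (tm1d) in every cell from conception. Each genotype had 5 mice at embryonic days 14 (E14) and 18 (E18) and at postnatal days 7 (P7), 35 (P35) and 70 (P70), which gives 50 libraries. The labels give the strain as C57BL/6NTac, the study describes the mice as male and of mixed C57BL/6NTac and C57BL/6J background, and the embryonic tissue is described as frontal brain regions and the postnatal tissue as frontal cortex, so age and dissection cannot be told apart there. The libraries held 35507165 to 43907318 counted reads, with a median of 38626998.5.

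Astrocytes arise from radial glia, the stem cells of the embryonic cortex, after most cortical neurons have been made, and they divide and mature through the first postnatal weeks. Mature astrocytes take up glutamate and potassium released by neurons, are joined to one another by gap junctions, and wrap blood vessels with endfeet rich in water channels. Several of their markers are made earlier by radial glia or by other glia, so a marker's level in whole tissue is not by itself a count of astrocytes.

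Levels are given as RPKM, read counts divided by exon length and by the scaled size of the library, and only RPKM is compared between genes. Differences between groups are given as log2 fold changes from edgeR, and a gene is called higher or lower when its p-value, adjusted by Benjamini-Hochberg over the 16330 tested genes, is under 0.05. In bulk tissue a higher level from more astrocytes and from more RNA per astrocyte cannot be told apart.

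Setd1a (ENSMUSG00000042308, chr7:127776670-127800122 in GRCm38) was at 19, 19.1, 20.1, 17.5 and 17.5 RPKM in wild-type replicates 1 to 5 at E14 and at 22.1, 20.1, 18.8, 20.6 and 19.1 RPKM in Setd1a+/- replicates 1 to 5. At P70 Setd1a was at 12.4, 13.1, 12.5, 12.0 and 13.5 RPKM in wild type and at 12.1, 12.7, 12.0, 11.3 and 14.4 RPKM in Setd1a+/-. The Setd1a ranges of the genotypes overlapped at each age but P7. At E18 Setd1a was at 13.8, 14.1, 13.9, 12.6 and 14.7 RPKM in wild type and at 15.3, 17.2, 14.3, 15.3 and 16.7 RPKM in Setd1a+/-. At P7 it was at 10.7, 11.2, 10.3, 10.4 and 10.5 RPKM in wild type and at 12.1, 11.5, 11.2, 12.3 and 12.3 RPKM in Setd1a+/-. At P35 it was at 13.5, 12.1, 12.0, 12.4 and 12.5 RPKM in wild type and at 13.5, 13, 13, 13.2 and 13.5 RPKM in Setd1a+/-. The mean Setd1a level was thus higher in the heterozygotes at each age but P70, where it was 12.5 RPKM against 12.7 in wild type, and with age as a covariate its log2 fold change was 0.10 (SE 0.025, adjusted p = 0.00679, edgeR quasi-likelihood test). The count covers all exons of the gene, and other annotated genes overlap 52.3% of its exon bases, Gm49388 alone 51.8%, so it says nothing about the disrupted allele.

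Xist RNA was plentiful in a wild-type library of E14 (replicate 5), with 60159 counts, and in one of E18 (replicate 2), with 55644, against 1 to 27 in the other 48. Their summed counts of 4 Y-linked genes were 0 and 11, against 4711 to 9768 in the others. Xist is made from the inactive X chromosome of female cells, while the study describes male mice. Among the P7 libraries, replicate 2 of wild type was unlike the rest. Across all tested genes its log2 levels deviated from the group mean with a standard deviation of 0.550, against 0.217 to 0.272 in the other 9 P7 libraries. It had the highest RPKM of the 10 P7 libraries for 8 of the 10 astrocyte markers. Its S100b level was 19 RPKM, where the other 9 ranged from 4.21 to 6.40. Its Aqp4 level was 50.6 RPKM against 18.9 to 23.4, and its Gfap level was 59.8 RPKM against 22.2 to 30.0. These gaps are wider than the whole range of the other 9 libraries. Sox9 was at 10.2 RPKM against 5.97 to 7.40, and Slc1a3 at 63.6 RPKM against 40.5 to 52.0. Aldh1l1 was at 22.9 RPKM against 15.1 to 18, Aldoc at 65.4 against 46.0 to 53.2, and Gja1 at 14 against 10.6 to 12.3. The exceptions were Slc1a2, whose 42.9 RPKM was the lowest of the 10 libraries, and Gjb6, at 3.92 RPKM inside the range of the others.

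Markers of other cells moved in the same library. The 5 mature oligodendrocyte markers (Mbp, Mog, Mag, Mobp and Cnp) summed to 1095 CPM, counts divided by the scaled library size but not by length, in it and to between 155.6 and 205.4 CPM in the other 9 P7 libraries. The 4 choroid plexus and ependyma markers (Ttr, Folr1, Kcne2 and Foxj1), of which Ttr was the most abundant and Folr1 had 0 counts in at least 1 library, summed to 620 CPM against 5.31 to 9.6 CPM. The 6 neuron markers (Rbfox3, Snap25, Syt1, Tubb3, Slc17a7 and Gad1) summed to 2755 CPM against 3767 to 4167 CPM. The astrocyte markers that were high in this library were thus high beside 2 other sets of markers, while neuron markers were low, and the part that the other cells or the dissection have in this was not tested. Results that rest on this library are given with and without it, and other P7 values include it. Without it the E18 to P7 log2 fold changes of S100b, Gfap, Aqp4 and Aldh1l1 were 2.54, 3.19, 3.49 and 0.19, all called. With it they were 2.84, 3.39, 3.68 and 0.24.

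**Figure D1:**
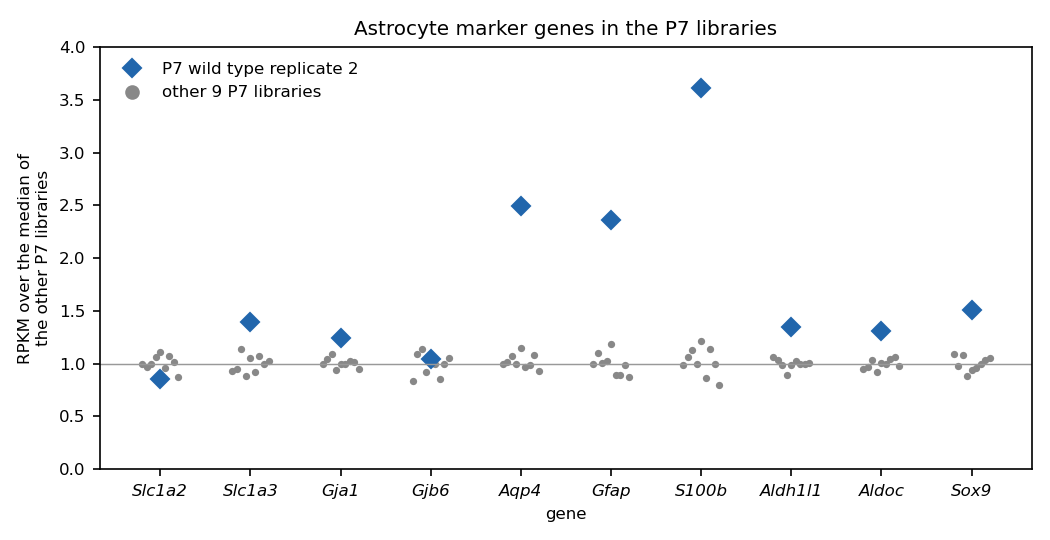
RPKM of each of the 10 astrocyte markers in the 10 libraries from P7 (horizontal axis), each point a library, as a multiple of the median of the 9 libraries other than wild-type replicate 2 (vertical axis). Wild-type replicate 2 lies 3.61 times above that median for S100b, 2.49 times for Aqp4 and 2.36 times for Gfap.

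The ages answer when the astrocyte markers change during development. From E14 to E18, 8 of the 10 were called higher and 2 lower, where 36% of all tested genes were called higher and 37.4% lower. At least 2-fold, 5 rose and 1 fell, against 11.7% and 5.01% of all tested genes. From E18 to P7, 8 were called higher and 1 lower, beside 37.9% and 38.2% of all tested genes, and 4 rose at least 2-fold beside 11.3%. From P7 to P35, 5 were called higher and 2 lower, beside 38% and 38.1%, and 4 rose at least 2-fold beside 10.3%. Calls in these intervals are common among all genes, and the markers were not tested against that background. Their median log2 fold change was 1.06 from E14 to E18, 0.86 from E18 to P7 and 0.43 from P7 to P35, where the median of all tested genes was 0.00. From P35 to P70, 0 of 10 were called by edgeR, where 5% of all tested genes were called higher and 4.75% lower. In that interval 1 of 10 had an unadjusted p under 0.05, beside 23.9% of all tested genes, and limma-voom and DESeq2 each called 0 with 1 at an unadjusted p under 0.05. When edgeR was fitted to the postnatal libraries alone, a choice made after seeing the data, 2 were called, Gjb6 at 0.26 and Aldoc at 0.14, beside 2677 of all tested genes. Over the whole span from E14 to P70, 9 were called higher and 1 lower, beside 44.7% and 45.1% of all tested genes, with 8 higher and 1 lower by at least 2-fold beside 26.3% and 20.3%. The median log2 fold change of the markers over that span was 3.55.

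**Figure D2:**
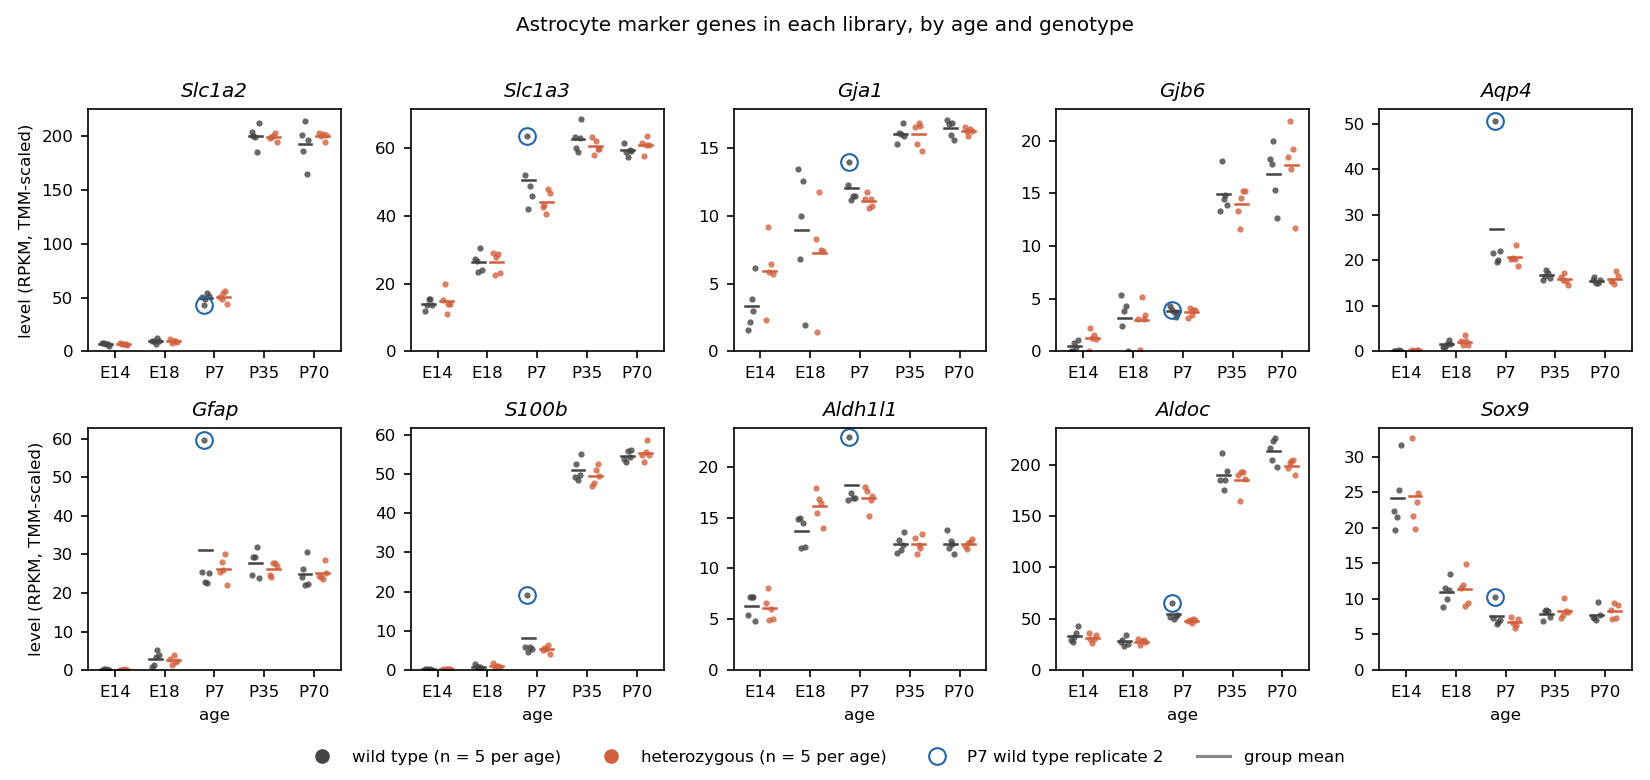
RPKM of each of the 10 astrocyte markers (vertical axis, 1 panel a gene) in each of the 50 libraries by age (horizontal axis), with a point for each wild-type or Setd1a+/- library, a dash at each group mean of 5 and a ring around wild-type replicate 2 at P7. Mean Gfap RPKM goes from 0.128 at E14 to 28.7 at P7 and 25.1 at P70, while mean Sox9 RPKM goes from 24.3 to 8.05.

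Slc1a2 and Slc1a3 encode the main glutamate transporters of astrocytes, known as GLT-1 and GLAST, which clear glutamate from around synapses. Slc1a2 (ENSMUSG00000005089, chr2:102658659-102790784) was at 5.41, 7.08 and 8.27 RPKM (lowest, median and highest of 10 libraries) at E14, at 7.29, 9.79 and 12.7 at E18, at 42.9, 50.3 and 55.9 at P7, at 185, 199 and 212 at P35 and at 164.1, 200.2 and 214 at P70. Every P7 library was above every E18 library, and every P35 library above every P7 library. The log2 fold change of Slc1a2 was 0.48 from E14 to E18, 2.36 from E18 to P7 (SE 0.0746, adjusted p = 4.95e-29, edgeR) and 1.99 from P7 to P35, so most of its rise came after E18. Slc1a3 (ENSMUSG00000005360, chr15:8634124-8710764) was at 11.2, 13.9 and 20 RPKM at E14, at 22.6, 27 and 30.6 at E18, at 40.5, 46.2 and 63.6 at P7, at 57.8, 61.1 and 68.5 at P35 and at 57.4, 60.2 and 63.5 at P70. Its E14, E18 and P7 ranges did not overlap, while the P7 range met that of P35 through wild-type replicate 2. The log2 fold changes of Slc1a3 were 0.86, 0.84 and 0.38 over the first 3 intervals, each called, and without that library the last was 0.43. Slc1a3 thus started higher and changed less, by 4.15-fold from E14 to P70 against 28.1-fold for Slc1a2.

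The RPKM of Slc1a2 was on average 0.494 times that of Slc1a3 at E14 and 0.369 times at E18, then 1.08 times at P7, 3.24 times at P35 and 3.27 times at P70. The order of the transporters therefore turned over around P7, where the ratio ran from 0.676 in wild-type replicate 2 to 1.33. Of the other genes of the family, Slc1a1, a transporter of neurons, rose from a mean of 3.35 RPKM at E14 to 15.1 at P70. Slc1a4, a carrier of neutral amino acids, was at 19.5 RPKM at E14, 44.5 at P7 and 18.4 at P70, and it was not called between E14 and P70. Slc1a5, another neutral amino acid carrier, had a log2 fold change of -2.31 over that span and Slc1a6, a neuronal transporter, of 1.31. Slc1a7 was not tested for lack of reads. At P70 both astrocyte transporters had a higher RPKM than each of these relatives.

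Gja1 and Gjb6 encode connexin 43 and connexin 30, the subunits of the gap junctions between astrocytes. Their promoters are printed because the levels of these genes moved together among embryonic libraries, as described after the sequences. Each line gives the RefSeq promoter in GRCm38.p6, 5' to 3' on the strand of the gene, chr10:56377050-56377349 on the plus strand for Gja1 and chr14:57133562-57133861 on the minus strand for Gjb6. Matches to TTGGC, to TTCNNNGAA and to AACAAT on either strand would stand in capitals, and neither sequence holds one.
Gja1: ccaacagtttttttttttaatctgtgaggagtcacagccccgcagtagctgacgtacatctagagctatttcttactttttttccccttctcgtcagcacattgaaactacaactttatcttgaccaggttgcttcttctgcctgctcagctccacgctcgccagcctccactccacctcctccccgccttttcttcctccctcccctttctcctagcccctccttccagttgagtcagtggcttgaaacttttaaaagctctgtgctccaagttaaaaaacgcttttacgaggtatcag
Gjb6: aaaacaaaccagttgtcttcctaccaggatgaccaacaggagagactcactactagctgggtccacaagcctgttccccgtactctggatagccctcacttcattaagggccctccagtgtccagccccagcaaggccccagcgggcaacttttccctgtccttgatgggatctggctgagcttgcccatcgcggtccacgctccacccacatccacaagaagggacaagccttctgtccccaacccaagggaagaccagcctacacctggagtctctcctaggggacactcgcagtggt

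Gja1 (ENSMUSG00000050953, chr10:56377330-56402513) was at 1.61, 2.21, 3.86, 2.96 and 6.19 RPKM in wild-type replicates 1 to 5 at E14 and at 2.34, 9.18, 5.86, 6.46 and 5.69 RPKM in Setd1a+/- replicates 1 to 5. At E18 Gja1 was at 13.5, 6.86, 9.97, 12.6 and 1.95 RPKM in wild type and at 8.31, 1.44, 11.8, 7.53 and 7.44 RPKM in Setd1a+/-. Wild-type replicate 5 and Setd1a+/- replicate 2 at E18 lay far below the others, and the E14 and E18 ranges overlapped. From P7 on Gja1 was even, at 10.6 to 14 RPKM at P7, 14.8 to 16.9 at P35 and 15.6 to 17.1 at P70. Its log2 fold change was 0.86 from E14 to E18 (SE 0.235, adjusted p = 0.00122, edgeR) and 0.52 from E18 to P7 (adjusted p = 0.0405, edgeR). The E18 to P7 call of Gja1 is not steady: it was lost when any of 10 libraries was left out, with adjusted p between 0.0502 and 0.0854 (edgeR) and log2 fold changes of 0.39 to 0.52. Those libraries were Setd1a+/- replicates 2, 4 and 5 and wild-type replicates 2 and 5 at E18, and Setd1a+/- replicates 1, 2 and 4 and wild-type replicates 1 and 2 at P7. From P7 to P35 the log2 fold change of Gja1 was 0.47 and was not called (adjusted p = 0.0631, edgeR), although the ranges of those ages did not overlap. That contrast was called, at 0.47 with adjusted p of 0.0284 to 0.0496 (edgeR), when Setd1a+/- replicate 1 or wild-type replicate 5 at E14, or Setd1a+/- replicate 2 or wild-type replicate 5 at E18, was left out. It was also called, at 0.46, when the postnatal libraries were fitted alone. Each edgeR fit takes 1 estimate of spread per gene over all its libraries. Within groups the standard deviation of log2 Gja1 was 0.736 at E14 and 1.16 at E18, against 0.103 at P7 and 0.068 at P35. The p-value from the fit to all libraries thus does not measure the spread at P7 and P35 alone.

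Gjb6 (ENSMUSG00000040055, chr14:57123303-57133611) spread more. At E14 Gjb6 was at 0.0110, 0.0811, 0.800, 0.466 and 1.04 RPKM in wild-type replicates 1 to 5 and at 0.0215, 2.27, 1.31, 1.60 and 1.19 RPKM in Setd1a+/- replicates 1 to 5, from 1 count in wild-type replicate 1 to 240 counts in Setd1a+/- replicate 2. At E18 Gjb6 was at 5.36, 2.45, 3.82, 4.28 and 0.0467 RPKM in wild type and at 3.05, 0.112, 5.19, 3.11 and 3.43 RPKM in Setd1a+/-. The E18 libraries lowest for Gjb6 were the same 2 as for Gja1, and the E14 and E18 ranges of Gjb6 overlapped. Within groups the standard deviation of log2 Gjb6 was 2.27 at E14 and 2.42 at E18, against 0.153 at P7. Gjb6 was at 3.15, 3.85 and 4.30 RPKM (lowest, median and highest) at P7, at 11.6, 14.5 and 18 at P35 and at 11.7, 18 and 21.9 at P70. Every P35 library was above every P7 library. Its log2 fold change was 1.95 from E14 to E18 (SE 0.402, adjusted p = 3.38e-05, edgeR), 0.29 from E18 to P7 (adjusted p = 0.468, edgeR, not called, while limma-voom called it at 1.12) and 1.94 from P7 to P35. Leaving out 1 library at a time moved the E18 to P7 value of Gjb6 to between 0.12 and 0.43 by edgeR, without a call. The ratio of Gjb6 to Gja1 RPKM averaged 0.326 at E18 and 0.325 at P7, then 0.902 and 1.05 at the later ages, so connexin 30 RNA drew level with connexin 43 RNA only after P7.

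Markers of meningeal fibroblasts, the cells of the brain's covering membranes, moved with the embryonic connexins. All 4 of these markers (Col1a1, Col1a2, Dcn and Lum) had counts in each embryonic library, and the most abundant was Col1a2, with a mean of 90.8 CPM at E14 and 136 CPM at E18. Their summed level at E14 was 6.08, 18.1, 114, 77.8 and 209 CPM in wild-type replicates 1 to 5 and 15.6, 886, 148, 293 and 188 CPM in Setd1a+/- replicates 1 to 5. The E14 libraries with the lowest sums were also those with the lowest Gjb6 RPKM, and the library with the highest sum had the highest Gjb6 and Gja1. At E18 the sum was 519, 195.9, 425, 403 and 46.7 CPM in wild type and 292, 331, 320.2, 179 and 187 CPM in Setd1a+/-. Wild-type replicate 5 had the lowest sum and the lowest Gjb6 at E18, while Setd1a+/- replicate 2 went the other way, with a sum of 331 CPM beside 0.112 RPKM of Gjb6. As deviations from the group mean over the 20 embryonic libraries, Pearson's r with this marker list was 0.802 for Gjb6 and 0.691 for Gja1, and over the 30 postnatal libraries it was 0.701 for Gjb6 (0.709 over the 29 without wild-type replicate 2 at P7). The postnatal value is for Gjb6 alone. Gja1 and Gjb6 had r of 0.952 with each other over the embryonic libraries but 0.249 over the postnatal ones (0.281 over the 29). These points share their depth and their dissection, and the part of meningeal tissue in the connexin levels was not tested.

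**Figure D3:**
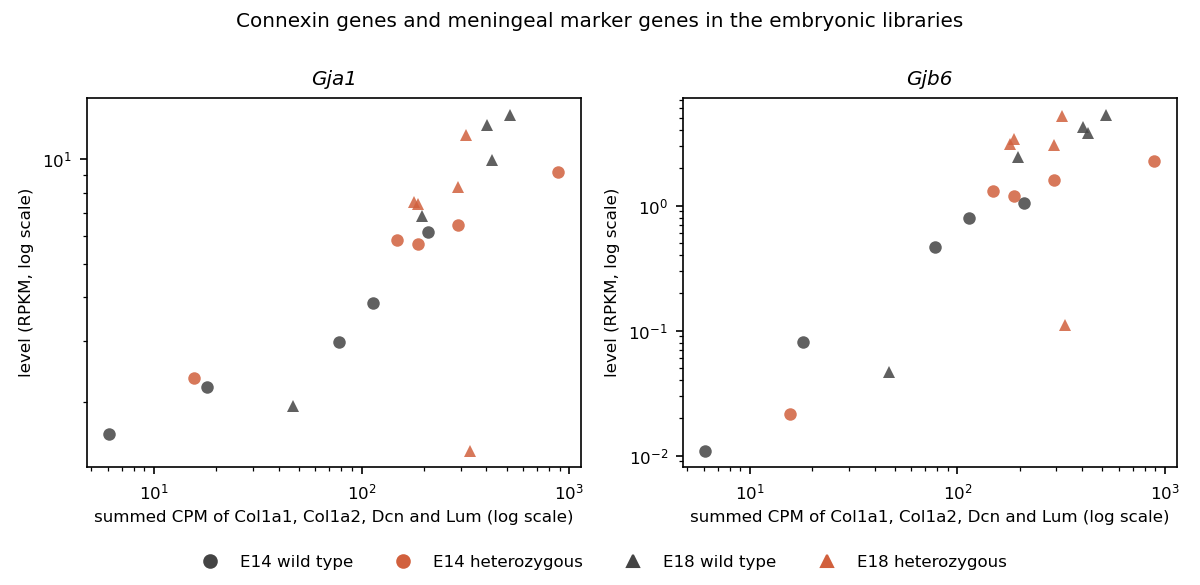
RPKM of Gja1 and of Gjb6 on the vertical axis against the summed CPM of the 4 meningeal fibroblast markers on the horizontal axis, both on log scales, each point an embryonic library. Gjb6 goes from 0.0110 RPKM at 6.08 CPM to 2.27 RPKM at 886 CPM among E14 libraries, and Setd1a+/- replicate 2 at E18 lies apart with 0.112 RPKM at 331 CPM.

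Among the other connexins, Gjb2, which encodes connexin 26, a gap junction protein of meninges and astrocytes, went from a mean of 1.21 RPKM at E14 to 4.33 at P70. The oligodendrocyte lineage connexins Gjb1 and Gjc3 rose from 0.0717 and 0.0395 RPKM to 6.20 and 11.2 RPKM. Gjc1 fell from 13.4 to 0.802 RPKM, and the neuronal connexin Gjd2 peaked at 12.0 RPKM at P7 from 2.97 at E14 and came to 1.99 at P70. From E14 to P70 the log2 fold change was 3.28 for Gja3, -1.42 for Gja4 and 2.11 for Gjd3, each called, and 0.02 for Gja5, which was not. The Gja3 change rests on few reads, with a median of 0 RPKM at E14 and a mean of 0.0641 RPKM at P70. Of the 11 connexins listed, Gja1 and Gjb6 included, 7 were called higher at P70 than at E14 and 3 lower, beside 44.7% and 45.1% of all tested genes.

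Gfap encodes the intermediate filament of mature and reactive astrocytes, and S100b a calcium-binding protein made by astrocytes and by some oligodendrocyte lineage cells. Their promoters are shown because these genes had the largest changes with age of the 10 markers. Both lines are RefSeq promoters in GRCm38.p6, 5' to 3' on the strand of the gene, chr11:102897151-102897450 on the minus strand for Gfap and chr10:76253586-76253885 on the plus strand for S100b. Capitals mark matches to TTCNNNGAA, a STAT motif, in Gfap, and to TTGGC, a motif of NFI factors, or its reverse complement GCCAA in S100b.
Gfap: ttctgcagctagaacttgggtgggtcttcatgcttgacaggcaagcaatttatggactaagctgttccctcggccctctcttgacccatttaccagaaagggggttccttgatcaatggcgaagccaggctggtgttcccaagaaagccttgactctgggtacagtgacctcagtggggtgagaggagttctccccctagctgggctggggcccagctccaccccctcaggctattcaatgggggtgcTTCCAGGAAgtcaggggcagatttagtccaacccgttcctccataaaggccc
S100b: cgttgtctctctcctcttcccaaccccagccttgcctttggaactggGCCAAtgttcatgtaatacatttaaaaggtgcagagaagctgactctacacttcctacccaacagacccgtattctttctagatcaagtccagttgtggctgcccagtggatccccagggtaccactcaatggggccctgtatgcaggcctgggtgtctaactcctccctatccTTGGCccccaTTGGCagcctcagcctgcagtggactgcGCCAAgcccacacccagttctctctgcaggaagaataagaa

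Among 32851 promoters of 300 bases, entries were found for 8 of the 10 markers, with 9 promoters among them since Aldoc has 2. Promoters on chromosome 18, where Aqp4 lies, were left out of the search for markers. Sox9 had no entry. TTGGC on either strand was in 3 of these 9 promoters, those of S100b with 4 matches, of Slc1a2 with 1 and of the first of Aldoc with 1, and in 46.7% of all promoters. TTCNNNGAA, which reads the same on both strands, was in 3 of 9, with 1 match in Gfap, 1 in Slc1a3 and 2 in the other Aldoc promoter, and in 8.3% of all promoters. AACAAT, a SOX motif, was in 0 of 9 on either strand and in 10.7% of all promoters. No matches overlapped, and a match is letters in a window, not a bound site. The median GC content was 53.7% in the marker promoters and 52.7% in all promoters, and the median number of CpG steps was 3 against 7. The RefSeq promoters of Gfap, Slc1a2 and Aldh1l1 and the other Aldoc promoter lie wholly inside the gene spans of the annotation used for counting.

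Gfap (ENSMUSG00000020932, chr11:102887336-102900912) was close to undetected at E14, with 0 to 48 counts and 0 to 0.308 RPKM. The library at 0 was wild-type replicate 1, where a count of 0 allows up to 3 counts, or 0.0209 RPKM, from counting error alone. Gfap was at 0.706, 2.65 and 5.33 RPKM (lowest, median and highest) at E18, at 22.2, 25.4 and 59.8 at P7, at 24.0, 27.4 and 31.9 at P35 and at 22.0, 24.3 and 30.6 at P70. Its E14, E18 and P7 ranges were separate, and from P7 on they overlapped. The log2 fold change of Gfap was 4.41 from E14 to E18 (SE 0.313, adjusted p = 1.06e-16, edgeR) and 3.39 from E18 to P7 (SE 0.224). From P7 to P35 it was -0.08 with all libraries and 0.11 without wild-type replicate 2 at P7, not called either way. Gfap had thus reached its adult level by P7, in contrast to Slc1a2, whose level rose a further 3.98-fold after it.

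Of the other intermediate filaments, Vim, the filament of radial glia, fell from a mean of 112 RPKM at E14 to 8.11 at P70, and Nes, another filament of neural stem cells, fell from 59.5 to 2.32. The ratio of Gfap to Vim RPKM averaged 0.00118 at E14 and 0.0668 at E18, then 1.86, 3.51 and 3.26 at the postnatal ages in order. Gfap thus passed Vim per length between E18 and P7. The neuronal filaments Nefl, Nefm and Nefh had log2 fold changes of 3.61, 2.81 and 4.99 from E14 to P70 and Ina of -0.82, all called.

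S100b (ENSMUSG00000033208, chr10:76253853-76261159) had 6 to 17 counts in each E14 library, or 0.102 to 0.290 RPKM. At E18 S100b was at 0.202, 0.845 and 1.90 RPKM (lowest, median and highest), at P7 at 4.21, 5.44 and 19, at P35 at 46.9, 49.6 and 55.1 and at P70 at 53.0, 55.0 and 58.8. The ranges of E14 and E18 overlapped, while those of E18 and P7, and of P7 and P35, were far apart. Its log2 fold change was 2.40, 2.84 and 2.93 over the first 3 intervals, the last being 3.22 without wild-type replicate 2 at P7. From E14 to P70 the log2 fold change of S100b was 8.29 (SE 0.277, adjusted p = 6.70e-30, edgeR), or 314-fold, the largest of the 10 markers, and it rests on few counts at E14. Within groups S100b moved with the 5 oligodendrocyte markers, at r = 0.948 over the 30 postnatal libraries and 0.440 over the 29 without wild-type replicate 2 at P7.

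Aqp4 encodes the water channel of astrocyte endfeet. Aqp4 (ENSMUSG00000024411, chr18:15389496-15410982) was at 0.139, 0.194 and 0.369 RPKM (lowest, median and highest of 10) at E14, at 0.896, 1.65 and 3.52 at E18, at 18.9, 20.5 and 50.6 at P7, at 14.6, 16.3 and 17.8 at P35 and at 14.8, 15.6 and 17.8 at P70. No range of Aqp4 overlapped that of the age before it except between P35 and P70. Its log2 fold change was 3.18 from E14 to E18 and 3.68 from E18 to P7 (SE 0.165, adjusted p = 8.55e-24, edgeR). From P7 to P35 Aqp4 fell, by -0.53 with all libraries (adjusted p = 0.00109, edgeR) and by -0.35 without wild-type replicate 2 at P7 (adjusted p = 0.00835, edgeR), so P7 was its highest age either way. Of the other aquaporins, Aqp1, a channel of choroid plexus, had a higher mean than Aqp4 before birth, 2.10 RPKM at E14 and 2.67 at E18, and came to 0.333 at P70, while Aqp11 went from 0.542 to 2.02. From E14 to P70 Aqp9 had a log2 fold change of 2.46, called, and Aqp5 of 0.59, not called, while Aqp3, Aqp7 and Aqp8 had too few reads to test.

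Aldoc and Aldh1l1 encode enzymes that mark astrocytes in the adult brain, an aldolase of glycolysis and a dehydrogenase of folate metabolism. Aldoc (ENSMUSG00000017390, chr11:78322968-78327781) was at 26.4, 31.3 and 42.9 RPKM (lowest, median and highest) at E14, at 23.8, 28.1 and 33.8 at E18, at 46.0, 50.2 and 65.4 at P7, and at 165, 188 and 212 at P35, and from 190 to 226 with a mean of 206.4 at P70. Its E14 and E18 ranges overlapped, as did those of P35 and P70, and the others were separate. Aldoc fell slightly from E14 to E18, with a log2 fold change of -0.22 (adjusted p = 0.00192, edgeR), then changed by 0.88 and by 1.87 in the next intervals. From P35 to P70 it changed by 0.13 (unadjusted p = 0.0360, adjusted p = 0.171, edgeR), not called, but called at 0.14 when the postnatal libraries were fitted alone. The RPKM of Aldoc was, as a multiple of that of Aldoa, the aldolase of most tissues, 0.617 times at E14 and 0.380, 0.355, 0.375 and 0.398 times at the later ages. The rise of Aldoc was therefore shared by Aldoa, which went from 52.8 to 518 RPKM with a log2 fold change of 3.30 from E14 to P70, larger than the 2.67 of Aldoc.

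Aldh1l1 (ENSMUSG00000030088, chr6:90486427-90600203) was at 4.78, 6.30 and 8.04 RPKM (lowest, median and highest) at E14, at 12.0, 14.9 and 17.9 at E18, at 15.1, 17 and 22.9 at P7, at 11.4, 12.3 and 13.6 at P35 and at 11.4, 12.4 and 13.8 at P70. The E14 libraries were all below the others, and the P7 libraries all above those of P35. Its log2 fold change was 1.25 from E14 to E18, 0.24 from E18 to P7 and -0.50 from P7 to P35 (adjusted p = 4.34e-08, edgeR), and the last was -0.45 without wild-type replicate 2 at P7. Aldh1l1 and Aqp4 were the markers called lower from P7 to P35. Other annotated genes overlap 13.4% of the exon bases of Aldh1l1. Its relative Aldh1l2, the mitochondrial form, fell from 6.17 RPKM at E14 to 0.683 at P70.

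Sox9 encodes a transcription factor of radial glia that astrocytes keep. Sox9 (ENSMUSG00000000567, chr11:112782224-112787760) was at 19.7, 23.0 and 32.7 RPKM (lowest, median and highest) at E14, at 8.87, 11.4 and 15 at E18, at 5.97, 6.89 and 10.2 at P7, at 6.87, 8.19 and 10.2 at P35 and at 6.98, 7.59 and 9.54 at P70. Every E14 library was above every later library. From E18 on neighbouring ranges overlapped, but without wild-type replicate 2 at P7 the highest P7 library was at 7.40 RPKM, below all of E18. Its log2 fold change was -1.12 from E14 to E18, -0.65 from E18 to P7 and -1.60 from E14 to P70 (SE 0.0981, adjusted p = 9.77e-20, edgeR), which made it the marker of the 10 that was lower in the adult. From P7 to P35 Sox9 changed by 0.18 (adjusted p = 0.0853, edgeR), not called, and by 0.25 without wild-type replicate 2 at P7 (adjusted p = 0.0157, edgeR), called, as it also was at 0.18 when the postnatal libraries were fitted alone. Of its closest relatives, Sox8 was at 12.5 RPKM at E14 and 13.9 at P70 and not called between them, while Sox10, a factor of oligodendrocyte lineage cells, went from 0.775 to 15 RPKM.

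**Figure D4:**
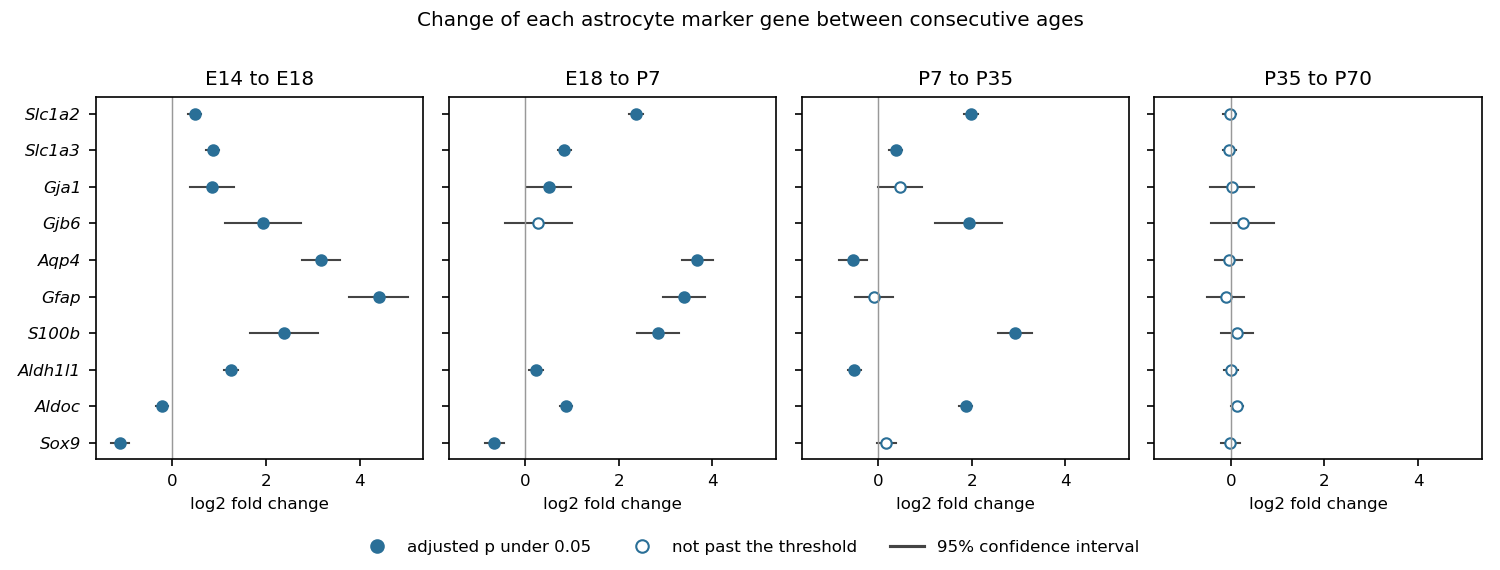
Log2 fold change of each of the 10 astrocyte markers, on the horizontal axis, in each interval between consecutive ages, with filled points where the adjusted p is under 0.05 and lines for the 95% confidence intervals. Gfap and Aqp4 change most between E14 and P7, by 3.18 to 4.41 in each interval, S100b by 2.40 to 2.93 in each of the first 3, and all 10 lie between -0.11 and 0.25 from P35 to P70.

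The order of the markers by mean RPKM changed with age. At E14 it was Aldoc at 32.5, Sox9 at 24.3, Slc1a3 at 14.5, Slc1a2 at 6.97, Aldh1l1 at 6.23, Gja1 at 4.64, Gjb6 at 0.879, Aqp4 at 0.204, S100b at 0.175 and Gfap at 0.128 RPKM. Of the 9 pairs of neighbours in that order only Slc1a3 and Slc1a2 had ranges that did not overlap. At E18 it ran Aldoc, Slc1a3, Aldh1l1, Sox9, Slc1a2, Gja1, Gjb6, Gfap, Aqp4 and S100b, with Slc1a3 and Aldh1l1 the neighbours apart in RPKM. At P7 it ran Aldoc, Slc1a2, Slc1a3, Gfap, Aqp4, Aldh1l1, Gja1, Sox9, S100b and Gjb6, and Gja1 was apart from both its neighbours. Without wild-type replicate 2 at P7 Slc1a2 came first at 50.8 RPKM and Aldoc next at 49.9, the rest of the order was the same, and 4 of 9 neighbours were apart. At P35 it was Slc1a2 at 199, Aldoc at 188, Slc1a3 at 61.5, S100b at 50.3, Gfap at 27.1, Aqp4 at 16.3, Gja1 at 16, Gjb6 at 14.5, Aldh1l1 at 12.4 and Sox9 at 8.1 RPKM. There 5 of 9 neighbours were apart, namely Aldoc and Slc1a3, Slc1a3 and S100b, S100b and Gfap, Gfap and Aqp4, and Aldh1l1 and Sox9. At P70 it was Aldoc at 206.4, Slc1a2 at 195.9, Slc1a3 at 60.0, S100b at 55.1, Gfap at 25.1, Gjb6 at 17.3, Gja1 at 16.4, Aqp4 at 15.8, Aldh1l1 at 12.4 and Sox9 at 8.05 RPKM. The 5 neighbours apart at P70 were Slc1a2 and Slc1a3, S100b and Gfap, Gfap and Gjb6, Aqp4 and Aldh1l1, and Aldh1l1 and Sox9. Scaling by library size alone kept the order of means at each age. Under it Gja1 was apart from neither neighbour at P7, and Gfap was not apart from Gjb6 at P70. The highest mean was 254.5 times the lowest at E14 and 30.1, 13.7, 24.6 and 25.6 times at the later ages, so the markers were most unequal before birth.

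The summed RPKM of the 10 markers averaged 90.5, 107, 248, 593 and 612 at the 5 ages in order. Sox9 made up 26.8% of that sum at E14 and 1.32% at P70, while Slc1a2 went from 7.84% to 32.0% and S100b from 0.197% to 9%. Aldoc held 35.8% at E14 and 33.7% at P70, while at P35 Slc1a2 had the higher mean, 33.6% against 31.6%, and the ranges of the 2 overlapped at P35 and at P70. A summed score of these genes would thus read mostly Aldoc and Sox9 at E14, and mostly Aldoc and Slc1a2 from P35 on.

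Over the 50 libraries, each marker was set against the mean standardized log2 level of the other 9. Slc1a3 followed it most closely, with r = 0.979, then S100b at 0.963, Slc1a2 at 0.922, Gfap at 0.913, Aqp4 at 0.911, Gja1 at 0.857, Gjb6 at 0.852, Aldoc at 0.817 and Aldh1l1 at 0.520. Sox9 ran against it, at r = -0.869. Among the genes outside the 10 most like the mean of all 10 were Apoe at 0.986, Aldh1a1 at 0.986, Klf9 at 0.982 and Cd81 at 0.982, over points that share age and depth.

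Within groups, where age and genotype are taken out, the markers moved together less. Over the 45 pairs of markers the median Pearson's r of the deviations was 0.233 over 50 libraries, from -0.291 to 0.945, and it was above 0 for 37. The highest was Gja1 with Gjb6. That pair was at 0.952 over the 20 embryonic libraries and at 0.249 over the 30 postnatal ones, or 0.281 without wild-type replicate 2 at P7. Without wild-type replicate 2 at P7 the median was 0.195, and without both libraries high in Xist it was 0.270. In the 30 postnatal libraries the median was 0.566 with that P7 library and 0.208 over the 29 without it, so the postnatal covariation rests largely on 1 library. Aldh1l1 with Slc1a3 reached 0.755 over 50 libraries. The genes whose deviations were most like the mean deviation of the markers were Slc6a20a at 0.888, Aebp1 at 0.887, Cldn11 at 0.886, Slc13a4 at 0.886 and Aldh1a2 at 0.884, none of them on the lists of astrocyte genes, and without wild-type replicate 2 at P7 their r was 0.898, 0.908, 0.884, 0.914 and 0.918. That mean mostly reads the embryonic connexins, as Gjb6 alone made up 58.6% of the summed squared deviations of the markers. With the deviations of Gjb6 the 5 genes had r of 0.882, 0.964, 0.965, 0.933 and 0.947 in the same order, and with the mean of the 8 markers other than Gja1 and Gjb6 they had 0.493, 0.398, 0.396, 0.427 and 0.417. These points share library depth and dissection.

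Lists of other glial genes set the 10 markers in context from E14 to P70, where 44.7% of all tested genes were called higher and 45.1% lower. Of 14 genes for glutamate, potassium and metabolite handling by astrocytes, 14 were called higher, with a median log2 fold change of 2.96, and the largest were Slc25a18 at 5.14 and Pla2g7 at 5.01. Of 23 other astrocyte-enriched genes, 19 were called higher and 3 lower, with a median of 3.31, led by Agt and then Ntsr2 at 6.30, with Gpc4 at -2.15 and Megf10 at -0.86 the most lowered. These medians are close to the 3.55 of the markers. Of 15 radial glia and immature astrocyte genes, 1 was called higher, Hopx at 1.54, and 14 lower, with a median of -2.19, led by Nes at -4.69 and then Tnc. Sox9, at -1.60, thus moved with this list and against the other 9 markers. Of 11 gliogenic transcription factors, 3 were called higher, led by Id3 at 0.62 and Stat3 at 0.61, and 6 lower, led by Nfib at -3.13 and Nfia at -2.43. Of 18 reactive astrocyte genes, 12 were called higher, led by Serpina3n at 8.49 and Lcn2 at 6.06, and 3 lower, led by Fkbp5 at -0.91 and Serping1 at -0.81.

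The labelled tissue was checked against markers of its other cells. The 6 neuron markers summed to a mean of 1773 CPM at E14 and 6647 at P70, and all were present at each age. From E14 to P70, 5 of them were called higher and 1 lower, Tubb3, which held 1340 CPM of the sum at E14 and 317 CPM at P70. The 10 astrocyte markers summed to 502, 674, 1745, 4337 and 4348 CPM at the 5 ages in order. The mature oligodendrocyte markers rose mostly after P7, from 267 CPM at P7 (175 without wild-type replicate 2) to 3612 at P35. From E14 to P70, 5 of 5 of those oligodendrocyte markers, 4 of 4 oligodendrocyte precursor markers (Pdgfra, Cspg4, Olig1 and Sox10) and 5 of 5 microglia markers were called higher, where 44.7% of all tested genes were called higher and 45.1% lower. Of 4 endothelial markers (Cldn5, Pecam1, Flt1 and Slco1a4), 2 were called higher, near the share of all genes. All 4 choroid plexus and ependyma markers were called lower, from a sum of 230 CPM at E14 to 11.3 at P70, and 3 of 4 meningeal markers were.

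The genotype comparison asks whether loss of 1 Setd1a copy changes the astrocyte markers. With age as a covariate, edgeR called 0 of 10 markers, where 0.68% of all tested genes were called higher in Setd1a+/- and 3.75% lower. At an unadjusted p under 0.05 there was 1 marker by edgeR, and limma-voom and DESeq2 also called 0 and had 1, where 14.5% of all tested genes were under that threshold by edgeR. It was Aldoc by each tool, with a log2 fold change of -0.09 (95% confidence interval -0.17 to -0.01, unadjusted p = 0.0275, adjusted p = 0.253, edgeR). Without wild-type replicate 2 at P7 it was -0.07 (unadjusted p = 0.0583, adjusted p = 0.381, edgeR). The other markers lay between -0.13 for Gfap and 0.16 for Gjb6, and without that library Gfap was at -0.04 and S100b went from -0.12 to 0.03. Over 60 alternatives, leaving out single libraries included, Gjb6 ranged from 0.036 to 0.24, without a call. The confidence interval was -0.08 to 0.09 for Slc1a2, -0.11 to 0.06 for Slc1a3 and -0.11 to 0.13 for Sox9, and the changes of these genes from E14 to P70 lie far outside it, while for Gjb6 it was as wide as -0.30 to 0.62. A count of 0 in 10 is not far from these background shares.

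The joint test of age by genotype interaction called 0 of 10 markers and 0% of all tested genes (edgeR). By edgeR, limma-voom and DESeq2 alike, 0 markers had an unadjusted p under 0.05, beside 6.72% of all tested genes by edgeR, and the smallest belonged to Aqp4 (adjusted p = 0.839, edgeR). At single ages edgeR called 0 of 10 at each, where 0.129% of all tested genes were called at E14 and 0.11% at E18, and 0.735%, 0% and 0.233% at the postnatal ages in order. limma-voom and DESeq2 called 0 markers at each age too. In 0 of 50 combinations of marker and age did the genotypes have ranges without overlap, beside 1.85% of such combinations over all tested genes. At an unadjusted p under 0.05 edgeR had 2, 2, 2, 0 and 0 markers at the ages in order, limma-voom had 1, 1, 0, 0 and 0, and DESeq2 had 2, 2, 0, 0 and 0. By edgeR 11.6%, 11.4%, 8.86%, 3.37% and 6.55% of all tested genes were under that threshold at the ages in order, so these counts of markers are near the background.

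The markers at E14 were the connexins, whose values in each library are given with their levels across ages: Gja1, with a log2 fold change of 0.81 (SE 0.335, adjusted p = 0.278, edgeR), and Gjb6, with 1.38 (SE 0.621, adjusted p = 0.347, edgeR). Setd1a+/- replicates 2 to 5 were high and replicate 1 was low for both, and the genotype ranges overlapped. The summed meningeal markers differed in the same direction, with means of 85 CPM in wild type and 306 CPM in Setd1a+/-, the latter 161 CPM without its replicate 2, and their part in this was not tested. The summed endothelial markers had means of 76.1 CPM in wild type and 137 CPM in Setd1a+/-. That gap rests largely on Setd1a+/- replicate 2, at 346 CPM. Setd1a+/- replicates 1, 3, 4 and 5 were at 71.8, 70.1, 124 and 71.6 CPM. Wild-type replicates 1 to 5 were at 72.6, 72.1, 78.3, 67.65 and 89.8 CPM. The part of endothelial cells was not tested either. Without wild-type replicate 5 at E14, the high-Xist library, the Gja1 difference was 1.15 and was called (adjusted p = 0.0462, edgeR), but 740 of all tested genes (4.53%) were then called, against 21 (0.129%) with all libraries.

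At E18 Aqp4 was at 1.00, 0.896, 1.69, 2.56 and 1.60 RPKM in wild-type replicates 1 to 5 and at 2.30, 1.47, 3.52, 2.29 and 1.32 RPKM in Setd1a+/- replicates 1 to 5, a log2 fold change of 0.49 (SE 0.225, adjusted p = 0.396, edgeR). Aldh1l1 was at 14.8, 15, 12.0, 14.4 and 12.1 RPKM in wild type and at 17.9, 15.4, 16.8, 16.4 and 14 RPKM in Setd1a+/-, a log2 fold change of 0.24 (SE 0.102, adjusted p = 0.352, edgeR). For both genes the highest library was a heterozygote and the ranges overlapped. Leaving out 1 library at a time moved the Aqp4 fold change to between 0.25 and 0.75, without a call. At P7 S100b was at 5.93, 19, 4.53, 6.00 and 5.27 RPKM in wild type and at 5.2, 5.60, 5.26, 6.40 and 4.21 RPKM in Setd1a+/-, a log2 fold change of -0.62 (SE 0.258, adjusted p = 0.412, edgeR) that was -0.03 without wild-type replicate 2. Aldoc at P7 was at 52.1, 65.4, 50.1, 52.5 and 53.2 RPKM in wild type and at 47.4, 48.3, 46.0, 50.2 and 49.2 RPKM in Setd1a+/-, a log2 fold change of -0.18 (adjusted p = 0.551, edgeR) that was -0.11 without it. The S100b difference at P7 therefore rests on that library.

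**Figure D5:**
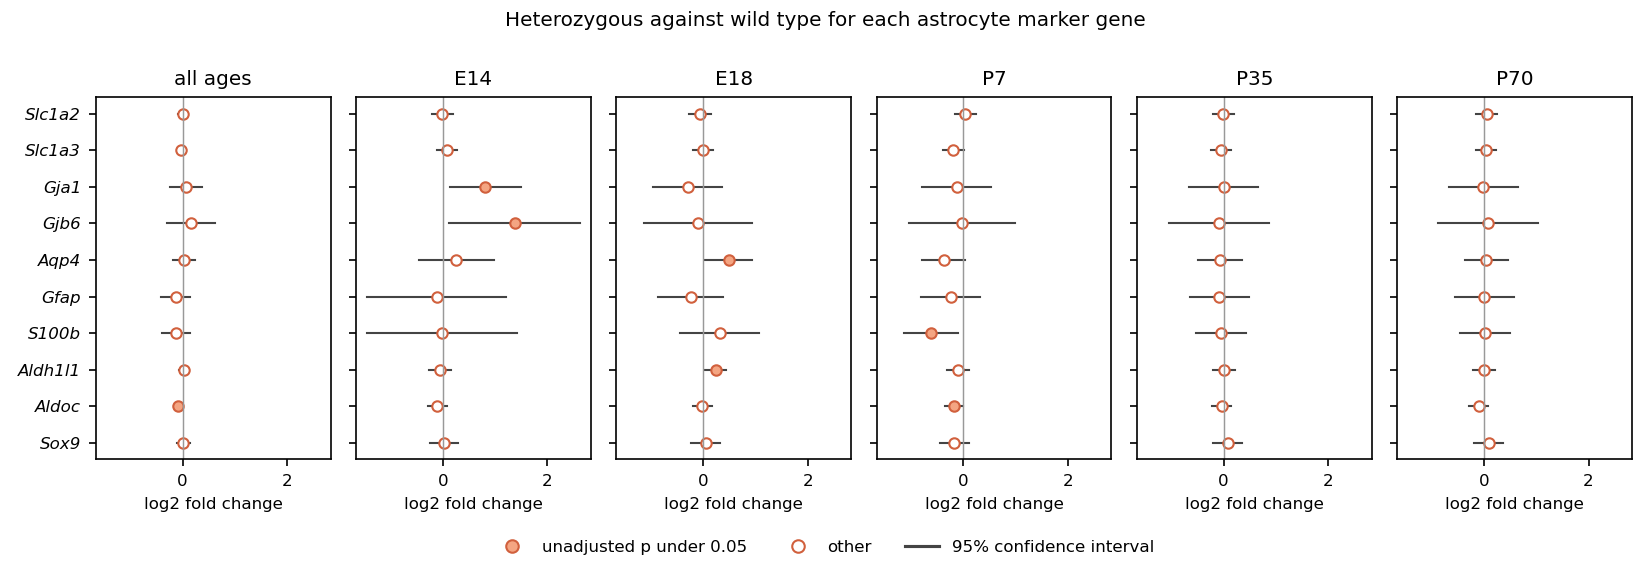
Log2 fold change of Setd1a+/- over wild type for each of the 10 astrocyte markers, on the horizontal axis, with age as a covariate (all ages) and at each age, with filled points where the unadjusted p is under 0.05 and lines for the 95% confidence intervals. With age as a covariate the values lie between -0.13 and 0.16, and the widest intervals are those of S100b, Gfap and Gjb6 at E14, with SE of 0.708, 0.663 and 0.621. The intervals use 1 estimate of spread per gene over all ages, so they do not measure the spread at a single age.

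Of the other astrocyte lists, the gene called with age as a covariate was Ggta1, 1 of 18 in the reactive list, at 0.27 (SE 0.0813, adjusted p = 0.0393, edgeR). In the lists of 14, 23, 15 and 11 genes 0 were called, beside 0.68% of all tested genes called higher and 3.75% lower. Without wild-type replicate 2 at P7 Ggta1 had the same log2 fold change of 0.27 with adjusted p = 0.0520 (edgeR), just over the threshold. At P7, 4 of the 147 listed genes tested were called, all of them markers of other cells and each lower in Setd1a+/-, as were 118 of the 120 called among all tested genes (0.735% called): Mobp at -3.63, Mag at -2.14, Mbp at -1.47 and Ttr at -9.27. Without wild-type replicate 2 at P7, 0 of these 4 were called by edgeR, with log2 fold changes of -0.62, -0.13, -0.15 and 0.23 in the same order and 1 unadjusted p under 0.05. The astrocyte markers, with 0 calls at P7 with or without that library, had no such call to lose.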

How the data were processed

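Frontal cortex RNA of the study was sequenced by Novogene after poly-A capture in 1 batch, and reads were counted per gene with featureCounts 1.4.6-p2 on GRCm38. The deposited values are raw counts, 1 file per library, as the authors' headers and the whole-number values show. Gene identifiers were matched to symbols with GENCODE vM21, which covered 55141 of 55487 genes, 21897 of them protein-coding. Counts of the 16330 protein-coding genes that pass edgeR's filterByExpr got TMM scaling factors and were fitted by the quasi-likelihood method of edgeR 4.0.16 in R 4.3.3, in 10 groups of 5 libraries, with Benjamini-Hochberg adjustment over all tested genes. Each edgeR fit took 1 estimate of spread per gene over all its libraries. RPKM uses the exon lengths in the files, and log2 CPM a prior count of 2. Correlations are Pearson's r, with no test. limma-voom (limma 3.58.1), DESeq2 1.42.0, other scalings and filters, a replicate block and leaving out each library were tried. Genes named are the 10 markers, their families, the list genes with the largest changes in each direction among those called, and genes among the most alike. The markers and lists were chosen with earlier results of these data known. Tests were checked on simulated counts in which each gene had 1 spread over all ages. That check does not cover a spread that differs with age. Counting error alone underlies the limit given for a count of 0. No library was left out of the fits.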

Additional observations from a re-analysis of the deposited data

Results flagged for a closer look

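In each age and genotype group, the RPKM of the 10 markers and of Setd1a was checked for a library far from the other 4. Of 110 groups of 5, 8 had one, where chance alone gives about 1 in 20. Of the 8, 6 are wild-type replicate 2 at P7: Gfap at 59.8 RPKM (nearest library 25.5), Aqp4 at 50.6 (22.0), Aldh1l1 at 22.9 (17.4), S100b at 19.04 (6.00), Sox9 at 10.2 (7.34) and Aldoc at 65.4 (53.2). The others are lowest values: Slc1a2 at 193.9 RPKM in Setd1a+/- replicate 4 at P70, where the other 4 ranged from 200.1 to 202.3, and Aldoc at 164.8 RPKM in Setd1a+/- replicate 2 at P35, where the nearest was at 185.9. What sets these libraries apart was not tested.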

How the results depend on the processing

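Of 740 fold changes of the markers, and of Setd1a by genotype, recomputed in 12 settings other than leaving out 1 library, 722 kept their direction and their side of the threshold. Of the rest, all of them markers, 4 lost a call, 7 gained one and 7, none of them called, changed sign. The cause was not tested. Counting a change only from 2-fold up left 6 markers from E14 to E18, 4 from E18 to P7 and 4 from P7 to P35. Fitting the postnatal libraries alone, chosen after seeing the data, gave 2 markers from P35 to P70, Gjb6 at 0.26 and Aldoc at 0.14, and added Gja1 at 0.46 and Sox9 at 0.18 to the 7 called from P7 to P35, with adjusted p by edgeR of 1.36e-13 (up to 0.274 over the alternatives) and 0.0387 (0.0147 to 0.717). Leaving out both libraries high in Xist gave 1 at E14 by genotype, Gja1 at 1.15, and leaving out each library in turn gave 0 to 1 there, 1 without wild-type replicate 5 at E14. The E18 to P7 call of Gja1 was lost with library size only at 0.46, an RNA integrity covariate at 0.48, the Xist libraries out at 0.48 and wild type only at 0.43. In that interval limma-voom called Gjb6, at 1.12. The P7 to P35 change of Sox9 was called with the RNA integrity covariate, at 0.28.

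The changes of sign from P35 to P70 were Aldh1l1 at -0.011 with library size only and Sox9 at 0.00321 with all annotated genes and at 0.025 with the RNA integrity covariate. Those by genotype were Aqp4 at -0.034 with limma-voom and -0.017 without the Xist libraries, and Slc1a2 at -0.00332 with library size only and -0.013 without the Xist libraries. Leaving out each library gave ranges across 0 from P35 to P70 of -0.016 to 0.021 for Aldh1l1, -0.045 to 0.00166 for Slc1a2 and -0.050 to 0.033 for Sox9, and from P7 to P35 of -0.13 to 0.11 for Gfap. By genotype they were -0.029 to 0.11 for Aqp4, -0.17 to 0.025 for S100b, -0.011 to 0.024 for Slc1a2 and -0.00985 to 0.043 for Sox9.

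Library size only moved the median of all genes from E14 to P70 to -0.13, which is small beside the marker changes, and took the calls from P35 to P70 from 816 higher and 775 lower to 668 and 1074. It took those by genotype from 7 higher and 11 lower to 5 and 13 at E18, and from 4 and 17 to 1 and 2 at E14.

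The share of all genes called by genotype, against which the markers are read, is not steady at single ages. At E14 edgeR called 21 genes, DESeq2 114, library size only 3, at least 10 CPM in 5 libraries 9, all annotated genes 11 and the Xist libraries out 793, with 1 without wild-type replicate 1 and 740 without wild-type replicate 5 at E14. At E18 it called 18, limma-voom 10, DESeq2 111, the 10 CPM filter 7, the integrity covariate 1 and the Xist libraries out 77, with 7 without Setd1a+/- replicate 2 at E18 and 150 without Setd1a+/- replicate 2 at E14. At P7 it called 120, limma-voom 16 and the 10 CPM filter 59, with 7 without wild-type replicate 2 and 211 without wild-type replicate 3. At P35 it called 0 with 550 at an unadjusted p under 0.05, limma-voom 0 and DESeq2 11, with 5 without wild-type replicate 2 at P7. At P70 it called 38 and DESeq2 77, with 8 without Setd1a+/- replicate 4 and 104 without Setd1a+/- replicate 5. The interaction gave 0, with 21 by DESeq2 and 12 without the Xist libraries. From P35 to P70, 1591 genes became 37 in wild type only and 2677 in postnatal libraries only.

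Replicates with the same number were checked for pairing: their deviations had a median r of 0.064, from -0.204 to 0.460, against -0.028 for other numbers. Each library was set against the 5 of the other genotype at its age, and 17 of 50 libraries were most like the one with their own number. At E18 the median was higher, 0.189 against -0.058, and 3 of 5 pairs there were over 0.1. The numbers were not taken as pairs in the fits, and a block was tried beside them. The replicate block left the number of markers called the same in each comparison, while all genes called became 37 for E18, 20 for P7, 3 for P35 and 3 for the interaction.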
